A study of Gallus gallus with 6 samples.

Results

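The insulin-like growth factor (IGF) genes examined here were the ligands *IGF1* and *IGF2*, the receptor *IGF1R*, and the binding proteins *IGFBP1*, *IGFBP2*, *IGFBP3*, *IGFBP4*, *IGFBP5* and *IGFBP7*. They were chosen by name, and a probe set (the group of probes that together give 1 value for a transcript) was taken as a member where the annotation of the array gave it 1 of these symbols. Of the 9 genes, 5 were measured by 6 of the 20804 probe sets, since *IGF1R* had 2. No probe set carried the symbol or the gene identifier of *IGFBP2*, *IGFBP4*, *IGFBP5* or *IGFBP7*, and these 4 genes were not analysed here. Whether any of the 8248 probe sets without a symbol detects them is not known here.

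The study profiled the right-sided ductus arteriosus (DA), an embryonic vessel that joins the pulmonary artery to the descending aorta, in Hypeco Nera chick embryos at internal pipping (IP). Breathing begins at internal pipping, inside the closed egg, before the shell is broken and while oxygen is low. The 3 groups were the proximal DA on the pulmonary artery side, the distal DA near the descending aorta, and that aorta, all untreated. Each group had 2 arrays, and RNA was isolated from pooled tissue of 10 embryos, with 100 ng of total RNA as input to an array. It is not stated whether duplicates were separate pools, so the p-values rest on a spread between arrays that may be technical.

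IGF1 and IGF2 are secreted peptides that bind IGF1R, a receptor tyrosine kinase at the cell surface. The activated receptor phosphorylates adaptor proteins of the IRS and SHC families, through which the PI3K and AKT pathway and the RAS and MAP kinase pathway are switched on, and in mammalian arteries IGF1 is known as a signal for growth, survival and migration of smooth muscle cells. IGF binding proteins hold the ligands outside the cell, prolong their life and limit or favour their access to the receptor, and proteases that cut the binding proteins set the ligands free.

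The values are log2 intensities, on which 2-fold is a difference of 1. Array medians were 6.61 to 6.66 and lower quartiles 5.25 to 5.41, and since the values carry no detection call, a value near the lower quartile cannot be told from background. The 3 tissues were compared in 1 limma fit, and a probe set was called at a Benjamini-Hochberg adjusted p under 0.05 over all 20804 probe sets. Of all probe sets, 1178 (5.66%) were called between the proximal DA and the aorta, 332 (1.6%) between the distal DA and the aorta, and 52 (0.25%) between both parts of the DA. Both comparisons with the aorta use the same aorta arrays, and the 7 smooth muscle markers measured, which define the vessel wall, were above the median in all 6 arrays. The arrays hold RNA of whole vessel pieces, in which fewer cells of a type and less RNA per cell cannot be told apart.

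None of the 6 IGF probe sets was called in any of the 3 comparisons by limma. The receptor *IGF1R* and the binding protein *IGFBP3* had their highest means in the proximal DA and their lowest in the aorta, *IGF2* had its highest mean in the aorta, and *IGF1* and *IGFBP1* differed from their aorta means by at most 0.20 in both parts of the DA. At an unadjusted p under 0.05, 2 probe sets passed between the proximal DA and the aorta (*IGF1R* and *IGFBP3*), 2 between the distal DA and the aorta (*IGF1R* and *IGF2*) and 0 between both parts of the DA. The shares of all probe sets that passed this looser threshold were 18.1%, 10.8% and 7.31%, respectively. Calls by direction made up 3.33% (higher) and 2.34% (lower) of all probe sets for the proximal DA and 0.952% and 0.644% for the distal DA, each against the aorta, and 0.159% and 0.0913% for the proximal against the distal DA.

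**Figure D1:**
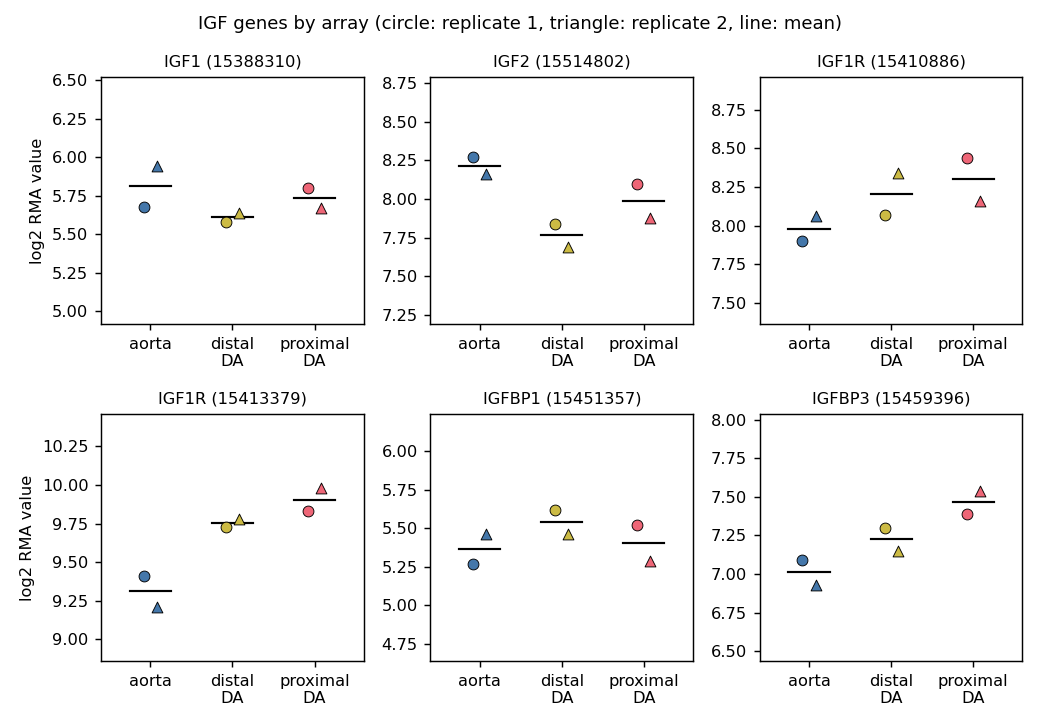
Log2 RMA value (vertical axis) of each IGF probe set in the aorta, distal DA and proximal DA, with a circle for replicate 1, a triangle for replicate 2 and a line for the mean of the 2 arrays. Each panel has its own vertical range of equal width. The second *IGF1R* probe set (15413379) was between 9.21 and 9.41 in the aorta and between 9.73 and 9.98 in the DA.

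The ligand *IGF1*, a growth factor that in mammals is made in the liver under growth hormone and also locally in many tissues, was measured by probe set 15388310. Its aorta arrays had values of 5.68 and 5.94, its distal DA arrays 5.58 and 5.64, and its proximal DA arrays 5.80 and 5.67. All 6 values lay above the lower quartile of their array but below its median. The distal DA arrays were both below both aorta arrays, whereas the proximal DA and the aorta overlapped. The difference from the aorta was -0.075 (SE 0.152) in the proximal DA and -0.20 (SE 0.152) in the distal DA, with limma adjusted p of 0.864 and 0.770. The order of the means was aorta, proximal DA, distal DA, and no neighbours in this order differed beyond the error. The 95% interval ran from -0.43 to 0.28 for the proximal and from -0.55 to 0.15 for the distal difference, and both parts of the DA differed by 0.125 (adjusted p = 0.997).

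The ligand *IGF2*, the main IGF of fetal growth in mammals, was measured by probe set 15514802. The aorta arrays gave 8.27 and 8.16, the distal DA arrays 7.84 and 7.69, and the proximal DA arrays 8.10 and 7.88. Every DA array was thus below both aorta arrays, and the distal DA arrays were below those of the proximal DA. The distal DA was lower than the aorta by a log2 difference of -0.45 (SE 0.151, 95% interval -0.80 to -0.10), which missed the threshold over all probe sets (limma adjusted p = 0.299). In the proximal DA the difference was -0.225 (95% interval -0.58 to 0.13, adjusted p = 0.512), and it exceeded the distal DA by 0.225 (adjusted p = 0.927). Leaving out distal DA replicate 2 gave a distal difference of -0.375, and leaving out distal DA replicate 1 gave -0.525, neither of which was called.

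The receptor *IGF1R*, through which both ligands signal, had 2 probe sets. Probe set 15413379 had values of 9.41 and 9.21 in the aorta, 9.73 and 9.78 in the distal DA and 9.83 and 9.98 in the proximal DA. No array of 1 tissue overlapped with those of another, and the order was proximal DA, distal DA, aorta. The proximal DA was 1.51-fold higher than the aorta, a log2 difference of 0.595 (SE 0.147, 95% interval 0.25 to 0.94), the largest difference of any IGF probe set in the 3 comparisons. The limma adjusted p was 0.0643, just above the threshold. The distal DA exceeded the aorta by 0.445 (95% interval 0.10 to 0.79, adjusted p = 0.288). The difference of 0.15 between both parts of the DA (95% interval -0.19 to 0.49, adjusted p = 0.997) lay within the error.

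This result was close enough to the threshold to move with the processing. The proximal difference of probe set 15413379 was called after quantile normalization (0.61, adjusted p = 0.0478), after cyclic loess normalization (0.64, adjusted p = 0.0302) and when only probe sets with a mean above the median entered the fit (0.595, adjusted p = 0.0352). Both normalizations were applied to values that RMA had already normalized by quantiles. The SE was 0.131 after quantile and 0.124 after cyclic loess normalization, beside 0.147 in the main fit. With only probe sets above the median the SE was still 0.147, and the adjustment ran over fewer probe sets. The difference was not called in the 10 other alternatives, which included the mean of both *IGF1R* probe sets put in place of this probe set. Leaving out either distal DA array gave the same fit as the 2 compared groups alone (0.595, limma adjusted p = 0.136). With an array left out, the difference was 0.495 to 0.695, lowest without aorta replicate 2.

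Probe set 15410886 of the same receptor gene gave 7.90 and 8.06 in the aorta, 8.07 and 8.34 in the distal DA, and 8.44 and 8.16 in the proximal DA. It had the same order of means, and all 4 DA arrays were above both aorta arrays, but distal replicate 1 exceeded aorta replicate 2 by only 0.01 and both parts of the DA overlapped. The proximal DA differed from the aorta by 0.32 (SE 0.170, 95% interval -0.08 to 0.72, adjusted p = 0.396) and the distal DA by 0.225 (adjusted p = 0.768). With the mean of both probe sets as 1 row, the proximal difference of the receptor was 0.46 (SE 0.138, adjusted p = 0.121). Which parts of the transcript either probe set covers was not analysed here.

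The binding protein *IGFBP3*, in mammals the chief carrier of IGFs in the blood, was measured by probe set 15459396. The aorta arrays had values of 7.09 and 6.93, the distal DA arrays 7.30 and 7.15, and the proximal DA arrays 7.39 and 7.54. As for the second *IGF1R* probe set, no tissue overlapped with another and the order was proximal DA, distal DA, aorta. The proximal DA was 1.37-fold above the aorta, a log2 difference of 0.455 (SE 0.148, 95% interval 0.11 to 0.80), and was not called (adjusted p = 0.148; 0.0929 to 0.433 over 12 alternatives). The distal DA was above the aorta by 0.215 (95% interval -0.13 to 0.56) and the proximal above the distal DA by 0.24 (95% interval -0.11 to 0.59), differences that lay within the error.

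The binding protein *IGFBP1*, a secreted protein that the mammalian liver makes in fasting and that hypoxia induces in mammalian cells, was measured by probe set 15451357. Values of 5.27 and 5.46 in the aorta, 5.62 and 5.46 in the distal DA, and 5.52 and 5.29 in the proximal DA overlapped for the aorta and the proximal DA and touched for the aorta and the distal DA. These values lay around the lower quartiles of the arrays, and 1 of the 6 was below that of its own array. The difference from the aorta was 0.04 (95% interval -0.33 to 0.41) in the proximal DA and 0.175 (95% interval -0.19 to 0.54) in the distal DA, with adjusted p of 0.939 and 0.821. In the annotation of RefSeq (GRCg7b), *IGFBP1* and *IGFBP3* are next to each other among the protein-coding genes, and their orders across the 3 tissues were not the same.

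**Figure D2:**
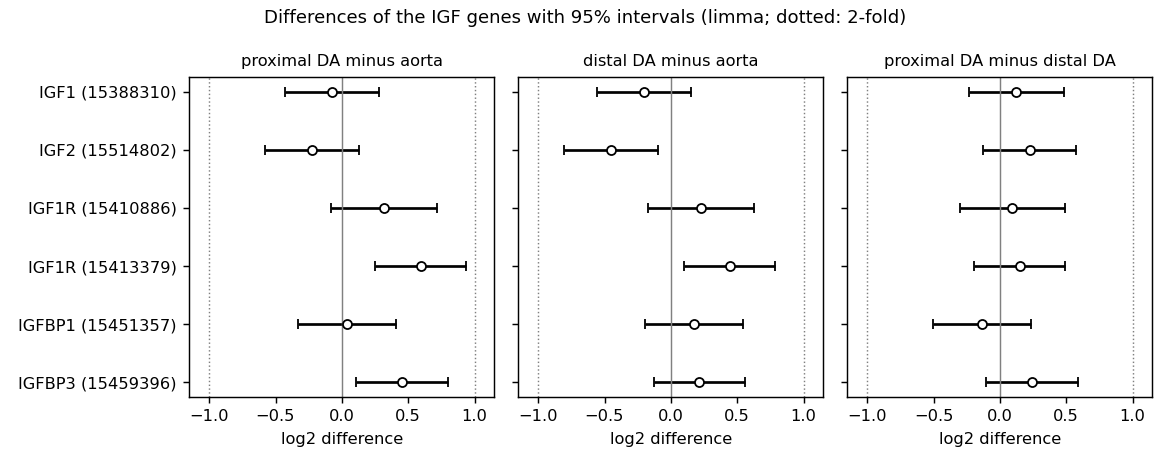
Log2 difference (horizontal axis) of the 6 IGF probe sets in the 3 comparisons, with 95% intervals of the limma fit that are not adjusted for the number of probe sets; the dotted lines mark a 2-fold difference. No interval reached a 2-fold difference in either direction, and the interval farthest from 0, that of *IGF1R* (15413379) in the proximal DA against the aorta, ended at 0.94.

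Across the members, the median log2 difference was 0.18 between the proximal DA and the aorta, 0.195 between the distal DA and the aorta and 0.14 between both parts of the DA, beside medians of -0.015, -0.005 and -0.02 over all probe sets. In size, regardless of direction, the members had medians of 0.27, 0.22 and 0.14, and all probe sets 0.18, 0.145 and 0.12. Arrays of the proximal DA and the aorta did not overlap for 4 of the 6 IGF probe sets (3 higher, 1 lower in the proximal DA), where 42.2% of all probe sets had no overlap (19% higher, 23.1% lower). For the distal DA and the aorta this held for 5 of 6 (3 higher, 2 lower) against 39.7% (19.9% higher, 19.8% lower), and for both parts of the DA for 4 of 6, all higher in the proximal DA, against 32.7% (14.7% higher, 18% lower). With 2 arrays a tissue such separation was common on the array, and these counts set no member apart. The smallest difference that was called between the proximal DA and the aorta was 0.585, and the median size of those called was 1.08.

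Since *IGF1R*, *IGFBP3* and *IGF2* each differed from the aorta in the same direction in both parts of the DA, the mean of the proximal and distal DA was also set against the aorta in the same fit, a contrast chosen after the values had been seen. The second *IGF1R* probe set was 1.43-fold higher in the DA (log2 difference 0.52, SE 0.127, 95% interval 0.22 to 0.82), with a limma adjusted p of 0.0701. It passed in 3 of 12 alternatives. The mean of both *IGF1R* probe sets put in its place was among the 12 and did not pass. *IGFBP3* was higher by 0.335 (95% interval 0.04 to 0.63, adjusted p = 0.242) and *IGF2* lower by a difference of -0.34 (95% interval -0.64 to -0.03, adjusted p = 0.248). Here, too, 0 of the 6 were called and 3 passed at an unadjusted p under 0.05, where 4.89% (2.76% higher, 2.12% lower) and 16.7% of all probe sets did. The 4 DA arrays lay apart from both aorta arrays for 4 of the 6 IGF probe sets (3 higher, 1 lower), and for 24.7% of all (11.5% higher, 13.2% lower).

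Of 62 other genes of the pathway, put in 6 lists by their role, 39 were measured, each at its probe set with the highest mean. Between the proximal DA and the aorta, 3 were higher and 2 lower, 5 of 39 beside 5.66% of all probe sets. That share also covers dim probe sets and those without a symbol, so it is not a like background for these 39. With only probe sets above the median level in the fit, a share of 0.50 of all, 1274 were called, beside 1178 in the full fit. Of the pathway genes, 4 were called there. Between the distal DA and the aorta 1 of the 39 was lower, beside 0.644% of all probe sets. Between both parts of the DA 0 were called by limma, beside 0.25%, and 4 passed at an unadjusted p under 0.05, beside 7.31%. For the mean of both parts of the DA against the aorta, 1 was higher and 2 lower, where 4.89% of all probe sets were called. *STC2* (-1.45, limma adjusted p = 0.00119) and *PIK3CA* (-0.61, adjusted p = 0.0327) were lower and *HTRA1* (0.65, adjusted p = 0.0215) was higher. Of these, *STC2* was called in all 12 alternatives, whereas *PIK3CA* was lost without each of the 6 arrays (adjusted p 0.0597 to 0.149) and *HTRA1* without each but proximal DA replicate 1 (0.057 to 0.114). The median difference of the 39 was -0.015, -0.025 and -0.005 in the first 3 comparisons, close to that of all probe sets.

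**Figure D3:**
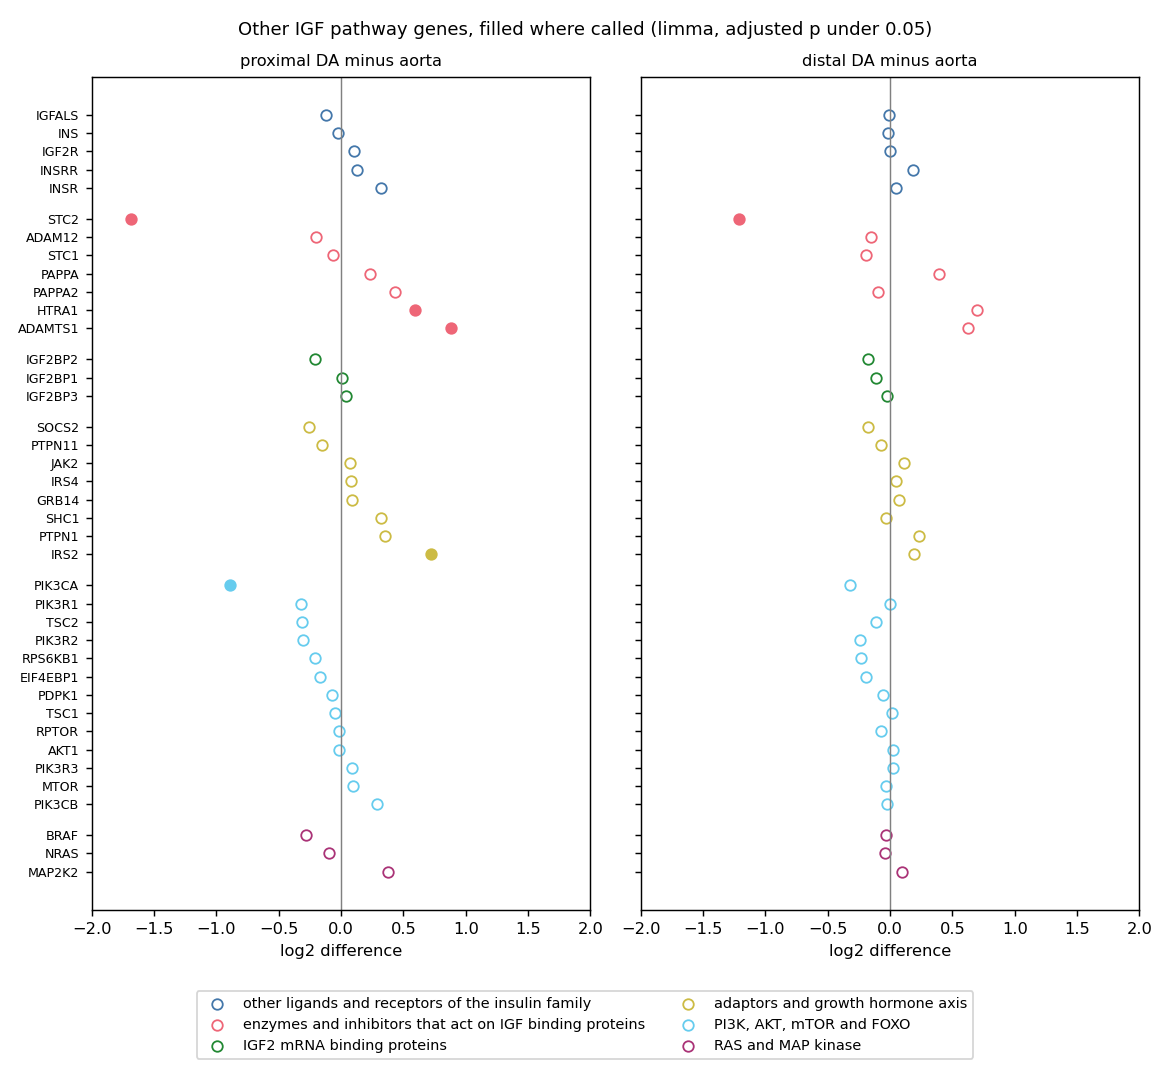
Log2 difference from the aorta (horizontal axis) in the proximal DA (left) and the distal DA (right) of the 39 other IGF pathway genes measured, coloured by list and filled where called by limma. *STC2* was farthest from 0 in both panels, at -1.685 and -1.21.

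The list of enzymes and inhibitors that act on IGF binding proteins held 3 of the 5 genes called in the proximal DA (2 higher, 1 lower of 7 measured). Of all probe sets, 3.33% were called higher and 2.34% lower, and no list was tested as a set. *STC2* encodes stanniocalcin 2, a secreted glycoprotein that in mammals binds and inhibits the protease PAPPA. It had values of 8.14 and 8.07 in the aorta, 6.98 and 6.81 in the distal DA, and 6.42 in both proximal DA arrays. No tissue overlapped with another, and the values fell from the aorta to the DA by far more than the replicates differed. The proximal DA was 3.22-fold lower than the aorta (log2 difference -1.685, SE 0.139, adjusted p = 0.00103) and the distal DA 2.31-fold lower (-1.21, SE 0.139, adjusted p = 0.00962). The proximal call held in all 13 alternatives. The distal call was lost without distal DA replicate 1 (-1.295, adjusted p = 0.0739) or replicate 2 (-1.125, adjusted p = 0.101). Both parts of the DA differed by -0.475, which was not called (adjusted p = 0.353).

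*HTRA1*, a secreted serine protease for which IGF binding proteins are among the known substrates, gave 9.85 and 9.80 in the aorta, 10.54 and 10.51 in the distal DA, and 10.41 and 10.43 in the proximal DA. Duplicates differed by at most 0.05, and all DA arrays were above the aorta. The proximal difference of 0.595 (SE 0.132) equalled that of *IGF1R* probe set 15413379 but had the smaller SE, and was called (adjusted p = 0.0449). The distal difference of 0.70 missed the threshold narrowly (adjusted p = 0.0535). *ADAMTS1*, a secreted metalloproteinase best known for cutting the proteoglycans versican and aggrecan, had values of 9.35 and 9.85 in the aorta, 10.10 and 10.35 in the distal DA, and 10.44 and 10.53 in the proximal DA. It was 1.85-fold higher in the proximal DA (0.885, SE 0.197, adjusted p = 0.0458), and its distal difference was 0.625 (adjusted p = 0.255).

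With 1 array fewer, both calls were mostly lost. The difference of *HTRA1* in the proximal DA stayed between 0.57 and 0.62 without any 1 array of the aorta or the proximal DA, but its call was lost each time. Leaving out a distal DA array cannot change this difference, and it gave the same fit as the 2 compared groups alone. In that fit, which has fewer residual degrees of freedom, *HTRA1* was not called (0.595, limma adjusted p = 0.109). The call of *ADAMTS1* was kept without aorta replicate 2 (difference 1.135). It was lost without aorta replicate 1 and without proximal DA replicate 1 (0.93) or replicate 2 (0.84). With the 2 compared groups alone it was also lost (0.885, limma adjusted p = 0.0737). The aorta duplicates of *ADAMTS1* lay 0.50 apart, and without aorta replicate 1 its difference was 0.635. The metalloproteinase *PAPPA*, which cuts IGFBP4, was not called, with values of 8.70 and 8.65 in the aorta, 8.98 and 9.15 in the distal DA and 8.90 and 8.91 in the proximal DA (distal difference 0.39, adjusted p = 0.337). The remaining members of the list, *PAPPA2*, *STC1* and *ADAM12*, were not called either. *PAPPA2* had values of 6.66 and 6.80 in the aorta, 6.74 and 6.52 in the distal DA, and 7.45 and 6.88 in the proximal DA. Its proximal DA exceeded the distal DA by 0.535 (limma unadjusted p = 0.0358, adjusted p = 0.593).

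**Figure D4:**
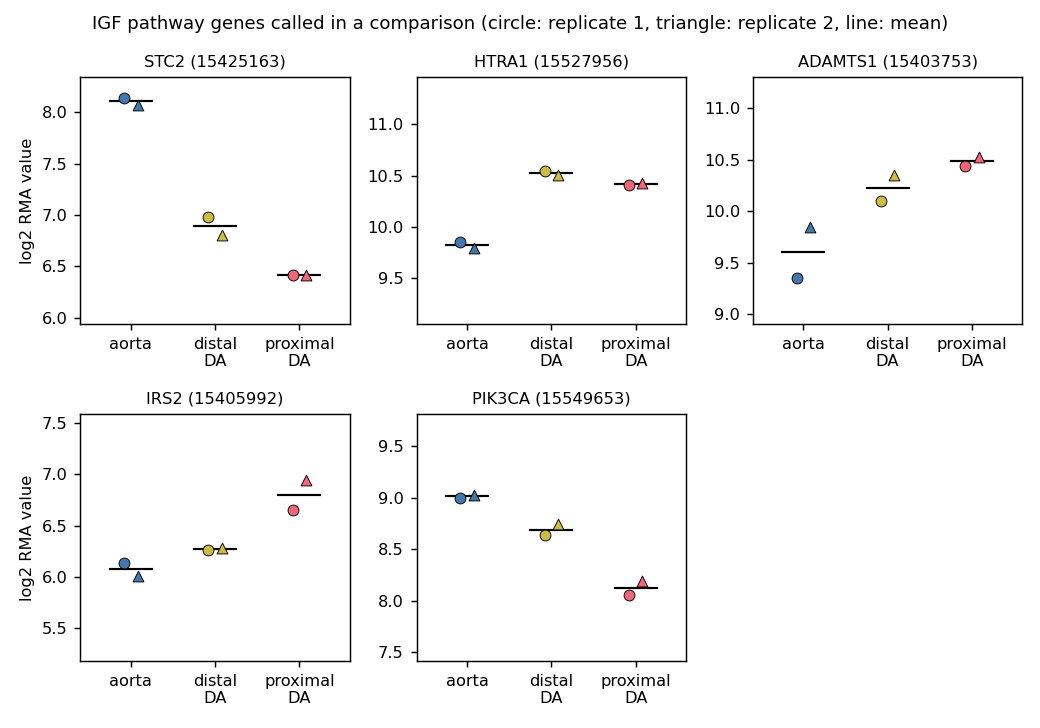
Log2 RMA value (vertical axis) of the 5 other IGF pathway genes called between the proximal DA and the aorta, with a circle for replicate 1, a triangle for replicate 2 and a line for the mean of the 2 arrays; all panels span the same width on the vertical axis. *STC2* and *PIK3CA* were lowest in the proximal DA and *ADAMTS1* and *IRS2* highest there, whereas *HTRA1* had its highest mean in the distal DA.

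Downstream of the receptor, 1 of 8 measured genes of the adaptors and growth hormone axis and 1 of 13 of the PI3K, AKT, mTOR and FOXO list were called, both in the proximal DA against the aorta. Of all probe sets, 5.66% were called in this comparison. *IRS2*, an adaptor that the insulin and IGF receptors phosphorylate, had values of 6.14 and 6.01 in the aorta, 6.26 and 6.28 in the distal DA, and 6.65 and 6.94 in the proximal DA. The proximal DA was above both other tissues, 1.65-fold above the aorta (0.72, SE 0.155, adjusted p = 0.0406) and 0.525 above the distal DA, which was not called (adjusted p = 0.358). The call against the aorta held in 3 of 12 alternatives. It was lost after cyclic loess normalization (0.71, limma adjusted p = 0.0556). Without each array of the aorta or the proximal DA it was also lost, with a difference of 0.575 to 0.865. With the 2 compared groups alone, the same fit as without a distal DA array, it was lost as well (0.72, limma adjusted p = 0.0885).

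*PIK3CA*, the gene of the alpha catalytic subunit of PI3K, had values of 9.0 and 9.03 in the aorta, 8.64 and 8.74 in the distal DA, and 8.05 and 8.19 in the proximal DA. The tissues did not overlap and were in the order aorta, distal DA, proximal DA, opposite to that of *IRS2*. The proximal DA was 1.86-fold lower than the aorta (-0.895, SE 0.138, adjusted p = 0.0112), a call that held in 12 of 13 alternatives and was lost without proximal DA replicate 1 (-0.825, adjusted p = 0.0595). The proximal difference did not reach the 2-fold minimum, which is not among the 13 alternatives. The distal DA differed from the aorta by -0.325 (adjusted p = 0.459), and the proximal from the distal DA by -0.57 (adjusted p = 0.238). The other 12 genes of this list differed from the aorta by at most 0.32 in size in the proximal DA, among them the regulatory subunit gene *PIK3R1* (-0.32, adjusted p = 0.368), *AKT1* (-0.015, adjusted p = 0.981) and *MTOR* (0.095, adjusted p = 0.895).

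No gene was called by limma on the other 3 lists. Among 5 measured genes of other ligands and receptors of the insulin family, the insulin receptor gene *INSR* came closest, with 7.22 and 7.21 in the aorta, 7.17 and 7.35 in the distal DA, and 7.53 and 7.54 in the proximal DA. Its proximal arrays were above all others, and the difference of 0.32 from the aorta had an adjusted p of 0.284. *IGF2R*, which encodes the cation-independent mannose-6-phosphate receptor and binds IGF2 in mammals but not with high affinity in the chicken, differed by 0.105 in the proximal and -0.005 in the distal DA. Among the 3 IGF2 mRNA binding proteins, which bind *IGF2* and other transcripts in the cytoplasm, *IGF2BP2* had the smallest p (proximal difference -0.21, adjusted p = 0.489). *BRAF*, a kinase below RAS, had the smallest p of the 3 measured RAS and MAP kinase genes (proximal difference -0.285, adjusted p = 0.421). No gene of these lists passed at an unadjusted p under 0.05 in a comparison with the aorta.

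Markers of smooth muscle and endothelium had higher mean levels in either part of the DA. As a background for their counts, 19% of all probe sets were above the aorta without overlap for the proximal DA. For the distal DA this share was 19.9%. The shares of all probe sets called higher than the aorta were 3.33% (proximal DA) and 0.952% (distal DA). Of 12 smooth muscle markers, 7 were measured, and all 7 lay above the aorta without overlap in either part of the DA, with 6 called in the proximal and 7 in the distal DA; their mean level was 9.61 to 9.67 in the aorta, 11.14 to 11.21 in the distal DA and 11.34 to 11.50 in the proximal DA. The smooth muscle myosin gene *MYH11* exceeded the aorta by 0.99 in the proximal and 1.015 in the distal DA. Of 12 endothelial markers, 9 were measured, and 9 lay above the aorta without overlap in the proximal DA (6 called) and 8 in the distal DA (3 called), with mean levels of 7.61 to 7.63, 8.50 to 8.53 and 8.73 to 8.86 in the same order of tissues. The mean levels of both lists thus had the order of tissues found for *IGF1R* and *IGFBP3*. Not every marker did, since *MYH11*, *MYLK*, *SYNPO2*, *PECAM1* and *ERG* had higher means in the distal than in the proximal DA. The part of these cell types in the values of *IGF1R* and *IGFBP3* was not tested.

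Of 9 fibroblast and adventitial markers, 7 were measured. In the proximal DA 1 was called higher and 4 lower than the aorta, beside 3.33% and 2.34% of all probe sets. In the distal DA 1 was called higher and 1 lower, beside 0.952% and 0.644%. Their mean levels were 11.18 to 11.35 in the aorta, 11.08 to 11.14 in the distal DA and 10.66 to 10.78 in the proximal DA. The mean level of the list thus had the order of *STC2* and *PIK3CA*, whereas *IGF2* had its lowest mean in the distal DA. Not every marker had this order, since *PI16* and *COL1A1* were highest in the proximal DA and *COL1A2* in the distal DA by their means. The part of fibroblasts and adventitia in the values of *STC2*, *PIK3CA* and *IGF2* was not tested. Markers of lung and airway epithelium (5 of 7 measured) and of melanocytes (4 of 6 measured) were all above the aorta and the distal DA in both proximal DA arrays. Of the former, 4 were called against the aorta and 2 against the distal DA, and of the latter 3 and 1. Of all probe sets, 3.33% were called higher against the aorta and 0.159% against the distal DA. Without overlap, 19% of all were higher than the aorta and 14.7% higher than the distal DA. Between the distal DA and the aorta, limma called 0 of either list, beside 1.6% of all probe sets. At an unadjusted p under 0.05, 0 of either list passed, beside 10.8%. The other marker lists, of blood cells, leukocytes, cardiac muscle, nerve and mesothelium, had at most 1 call per comparison. All 5 measured blood cell markers were above the aorta without overlap in the distal DA, and 1 was in the proximal DA. Of all probe sets, 19.9% and 19% were so. The median difference of the blood cell markers from the aorta was 0.85 in the distal and 0.575 in the proximal DA. For lung and airway epithelium, mean levels were 5.73 to 5.94 in the aorta and 5.73 to 5.89 in the distal DA. They were 7.58 to 7.81 in the proximal DA. For melanocytes, mean levels were 4.72 to 4.97, 4.83 to 4.90 and 6.30 to 7.36 in the same order of tissues. *IRS2*, *INSR* and *PAPPA2* were likewise highest in the proximal DA, and the part of these cell types in their values was not tested.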

How the data were processed

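Tissue RNA was profiled in duplicate on GeneChip Chicken Gene 1.0 ST arrays of Affymetrix. The deposited log2 values were made by the authors with robust multi-array average (RMA) in the oligo package, which corrects the background, normalizes the arrays by quantiles and summarizes each probe set; all 20804 probe sets of the 6 arrays were used as deposited, and 0 columns were left unmatched. The number of arrays limits the precision. The sources used here name no genome build for the array annotation.

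Tissue means were fitted with limma 3.58.1 in R 4.3.3 (eBayes after lmFit and contrasts.fit, no trend, 3 residual and 4.40 prior degrees of freedom). The fit was tried on simulated data with independent normal noise of the fitted size. Such data cannot show whether the spread between duplicates is technical. An exact test of 2 against 2 arrays cannot go below a two-sided p of 0.333 and was not used. The alternatives tried were cyclic loess or quantile normalization, a robust eBayes with trend, the 2 compared groups alone, only probe sets with a mean above the median, a 2-fold minimum, leaving out each array, the replicate number as a block, and other rules for genes with several probe sets. The 2-fold minimum was applied to counts of calls and is not among the alternatives counted for a single gene. Where 1 array of a tissue was left out, the other was assumed to vary like the other groups. Leaving out an array of the tissue not compared gave the same fit as the 2 compared groups alone. The rule named every member and every pathway gene called in a comparison with the aorta or between both parts of the DA. For a list with none, it named the gene with the smallest p. *PAPPA*, *PIK3R1*, *AKT1*, *MTOR*, *IGF2R* and the uncalled rest of 1 list were named after their values had been seen. Genes of like profile were to be named only for a called member, so *TTC7B*, *SPECC1L* and *CDK17* also fall outside the rule. The members, lists and markers were chosen with earlier results of these data known.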

Additional observations from a re-analysis of the deposited data

How the results depend on the processing

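The members called between the proximal DA and the aorta rose from 0 to 1 (*IGF1R*, probe set 15413379) under quantile normalization, cyclic loess normalization and with only the probe sets above the median level, and the same count of 1 was reached there for the mean of both parts of the DA against the aorta; under every other alternative of the 4 comparisons it was 0, also without any 1 array. Other pathway genes called in the proximal DA numbered 1 with at least 2-fold, 2 with only the 2 groups compared and 3 with the replicate block; in the distal DA 2 with trend and robust, quantile, cyclic loess and the probe sets above the median level; and for the mean of the DA 1 with at least 2-fold. Leaving out 1 array gave 1 to 3 in the proximal DA, 0 to 1 in the distal DA and 1 to 2 for the mean of the DA.

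All probe sets called numbered 689 in the proximal DA and 461 for the mean of the DA with at least 2-fold, and between both parts of the DA 80 with trend and robust, 107 for the probe sets above the median level and 0 with the replicate block. Leaving out 1 array gave 452 to 1070 (lowest without proximal DA replicate 2), 52 to 250 (lowest without distal DA replicate 1), 0 to 55 (0 without either array of the distal DA, or without replicate 2 of the proximal DA) and, for the mean of the DA, 538 to 822 (lowest without distal DA replicate 1).

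Small differences changed sign. *BRAF* in the distal DA gave 0.021 by quantile and 0.0034 by cyclic loess normalization. Without 1 array, *BRAF* ranged from -0.155 to 0.085 and *INSR* from -0.045 to 0.135 in the distal DA, *IGFBP1* from -0.075 to 0.155 and *IGF1* from -0.205 to 0.055 in the proximal DA, and *IGF1R* (15410886) from -0.045 to 0.235 between both parts of the DA.

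Deviations of arrays with the same replicate number from their tissue means correlated at 0.199 (aorta and distal DA), -0.03 (aorta and proximal DA) and 0.321 (both parts of the DA). A shared replicate effect was thus not seen in all pairs of tissues, but whether both parts of the DA shared one was not tested. No pairing was assumed in the main fit. If the DA arrays vary together, its SE for the mean of both parts of the DA may be too small. The replicate block fits a single shift common to all tissues. With the replicate block, 0 members were called, 1220 and 292 probe sets in the proximal and distal DA, and *HTRA1* (adjusted p = 0.0515) and *IRS2* (adjusted p = 0.0552) lost their calls in the proximal DA. *IGF1*, *IGFBP1* and *IRS2* were below the median level and have no value where only probe sets above it entered the fit. Signals near the lower quartile (*IGF1*, *IGFBP1*) limit what can be seen of these genes. The median SE of a difference was 0.167, and the smallest differences called were 0.585, 0.735 and 1.015 in the 3 comparisons of tissues.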

Other observations

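Among the protein-coding genes of the RefSeq annotation (GRCg7b), *IGF1R* is next to *SYNM*, the gene of the intermediate filament protein synemin of muscle cells, whose values were 6.80 and 6.53 in the aorta, 7.44 and 7.79 in the distal DA and 7.62 and 8.35 in the proximal DA. Against the aorta, *SYNM* was called higher in the proximal DA (log2 difference 1.32, SE 0.257, limma adjusted p = 0.0279) and not in the distal DA (0.95, adjusted p = 0.172). *IGF2* is next to *INS*, the insulin gene, whose values of 4.88 to 5.18 were below the lower quartile of their array in all 6 arrays. These neighbours were singled out after their values had been seen.

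The 3 genes whose values, each centred on its own mean, followed the second *IGF1R* probe set most closely over the 6 arrays were *TTC7B*, *SPECC1L* and *CDK17*, with root mean square differences of 0.0356, 0.0476 and 0.0523 on the log2 scale. For the other members, the nearest gene differed by 0.0211 (*IGF1*), 0.0249 (*IGFBP1*), 0.0309 (*IGF1R*, 15410886), 0.0367 (*IGFBP3*) and 0.0543 (*IGF2*). Such closeness was thus also found for members near the lower quartile, and it does not set the 3 genes apart. The likeness was computed over all probe sets with 1 symbol and is a description of 6 arrays with no test.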
